A study of Bos taurus with 16 samples.

Results

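XCL1, also called lymphotactin, is a secreted chemokine of the C class. It was followed here as a single gene through the bovine corpus luteum of the estrous cycle and of pregnancy. It was found by its name and description in the scanner files and is held by 1 of the 15208 probes of the array, and is 1 of the 6765 genes that could be named there. The gene was chosen because its signal was lower in pregnancy, uneven between slides and matched by that of other genes. Its own levels and differences are therefore given as a description, with no test.

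XCL1 is made mainly by activated cytotoxic T cells and natural killer cells. Its receptor, XCR1, is carried mainly by the dendritic cells that present captured antigen to cytotoxic T cells. The corpus luteum, which develops from the ovulated follicle, secretes progesterone. It holds steroidogenic cells, a dense network of capillaries and resident immune cells, and lymphocytes and macrophages are known to gather in it when it regresses at the end of a cycle without pregnancy.

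The glands came from 16 Japanese Black cows, in 4 groups of 4 separate animals, each hybridised to a 1-colour array. The cyclic group was taken on cycle days 10-12 and the others at days 20-25, 40-45 or 150-160 of gestation, with insemination as day 1. The labels give no treatment or genotype for any group, and no age of the cows. All pregnant glands were also older, and the effect of age on XCL1 cannot be told apart from that of pregnancy.

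Per array, the processed signal had a 75th percentile of 2020 to 4288, and 71.9% to 79.6% of probes exceeded background clearly ("well above background" in the scanner's flags). There were 2 slides, with replicates 1 and 2 of every group on slide 1 and replicates 3 and 4 on slide 2. Position within a slide was tied to the group, so those effects cannot be told apart. Among the genes used to check the tissue, STAR, CYP11A1 and HSD3B1 were high in all groups. LHCGR, the luteinizing hormone receptor, was not, with levels of -3.14 to -0.31 over all cows. STAR, which brings cholesterol into mitochondria, had a mean of 7.37 ± 0.55 (SD, n = 4) in cyclic cows and 7.58 to 7.62 in the pregnant groups. Levels here are log2 signals minus the 75th percentile of the same array. With 4 arrays in each group, it is this number that sets the precision.

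The XCL1 probe is 60 bases long. Its middle stretch, positions 16 to 45 counted from the 5′ end of the probe as printed in the array design, is shown because every XCL1 value below rests on this single probe.

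XCL1 probe: atttcccttcaaagcctatggactgattac

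This stretch has a GC content of 40%. The full probe shared no run longer than 6 bases with any of 21 other chemokine ligand probes of the array, and 0 other probes of the array held a run of 16 of its bases. In the RefSeq gene table of ARS-UCD2.0, the protein-coding gene next to XCL1 on one side is XCL2, its close paralog, and DPT lies on the other. No probe was named XCL2, and how far XCL2 transcripts bind the XCL1 probe was not tested, so the 2 genes cannot be told apart in these signals. No probe was named XCR1 either, so the receptor was not measured. Where the probe lies in the transcript was not determined here.

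XCL1 was well above background, unsaturated and free of outlier flags on all 16 arrays. Its processed signal, an intensity, ran from 139 to 10352, which was 4.72 to 401 times the lowest signal well above background on the same array. It exceeded 26.2% to 85.3% of the tested probes of its array.

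In cyclic cows the XCL1 level was 0.91, 1.72, -1.35 and -0.25 in replicates 1 to 4, a mean of 0.26 ± 1.34 (SD, n = 4). On pregnancy days 20-25 it was -2.27, -2.17, -3.69 and -3.12, a mean of -2.81 ± 0.72. On days 40-45 it was -3.97, -4.25, -2.61 and -1.80, a mean of -3.16 ± 1.15.

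The last group, days 150-160, had levels of -3.91, -4.16, -4.27 and -2.89 and a mean of -3.81 ± 0.63. All 12 pregnant cows thus lay below all 4 cyclic cows, with a gap of 0.46 between the lowest cyclic and the highest pregnant animal. In bulk tissue, fewer cells of a type and less RNA per cell cannot be told apart.

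**Figure D1:**
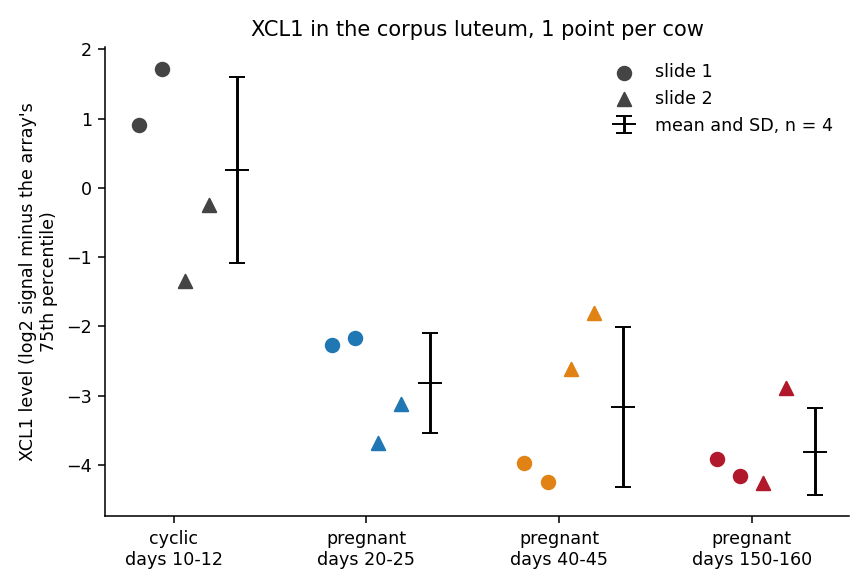
XCL1 level (log2 signal minus the 75th percentile of the array, vertical axis) in each of 16 cows by group, with circles for slide 1, triangles for slide 2 and bars for the group mean and SD (n = 4). The 4 cyclic cows lie between -1.35 and 1.72 and the 12 pregnant cows between -4.27 and -1.80, and the 3 pregnant groups overlap each other.

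On the linear scale, the geometric mean of XCL1 was 120% of the 75th percentile signal in cyclic cows. In the pregnant groups it was 14.2% (days 20-25), 11.2% (days 40-45) and 7.14% (days 150-160). Against cyclic cows XCL1 differed by -3.07 (SE 0.65) on days 20-25, which is 8.41-fold lower. The difference was -3.42 on days 40-45, or 10.7-fold lower, and -4.07 on days 150-160, or 16.8-fold lower, with the same SE. The 3 comparisons share the 4 cyclic cows.

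Few probes had a larger drop in the same comparisons. Of 11943 tested probes, 13 had a more negative difference on days 20-25, 9 on days 40-45 and 5 on days 150-160. Groups that did not overlap, with pregnancy lower, were found for 1.68%, 4.54% and 5.07% of probes in these comparisons, and for 0.495% with all 12 pregnant arrays against the 4 cyclic ones. XCL1 was chosen on these contrasts, so nothing is read from its place among them.

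In order, the mean XCL1 level was highest in cyclic cows, then on days 20-25, days 40-45 and days 150-160. The neighbours in this order among the pregnant groups did not differ beyond their spread. Days 40-45 differed from days 20-25 by -0.35 (SE 0.65) and days 150-160 from days 40-45 by -0.65, and the animals of both pairs of groups overlapped. Between days 20-25 and 150-160 the difference was -1.0, again with overlap. Without days 40-45 replicate 2, the difference between days 40-45 and 20-25 was 0.02, and without days 40-45 replicate 4 it was -0.80.

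The drop below cyclic cows was present on both slides and was larger on slide 1. On slide 1 the difference from cyclic cows was -3.54 on days 20-25, -5.43 on days 40-45 and -5.35 on days 150-160. On slide 2 it was -2.61, -1.41 and -2.78. The gap between slides was 4.02 on days 40-45, and 0.109% of the tested probes had one at least as large. For days 20-25 and 150-160 the gaps were 0.93 and 2.57, matched or exceeded by 11.8% and 0.795% of probes. XCL1 was chosen partly for its slide dependence, so nothing is read from these shares.

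The slides did not shift XCL1 in a single direction. Slide 2 minus slide 1 was -2.11 in cyclic cows and -1.18 on days 20-25, but 1.90 on days 40-45 and 0.45 on days 150-160. As large a gap in either direction was seen for 0.821%, 3.41%, 0.394% and 29.6% of probes in these 4 groups. Given how XCL1 was chosen, nothing is read from these shares either. Each value sets 2 cows against 2 others, so slide and animal cannot be told apart.

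This changed the order of the pregnant groups. On slide 1, days 40-45 lay below days 20-25 by 1.89, as a difference of -1.89, while on slide 2 days 40-45 lay above them by 1.20. Days 150-160 differed from days 40-45 by 0.08 on slide 1 and by -1.37 on slide 2. A stepwise decline through pregnancy was thus not seen on either slide.

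**Figure D2:**
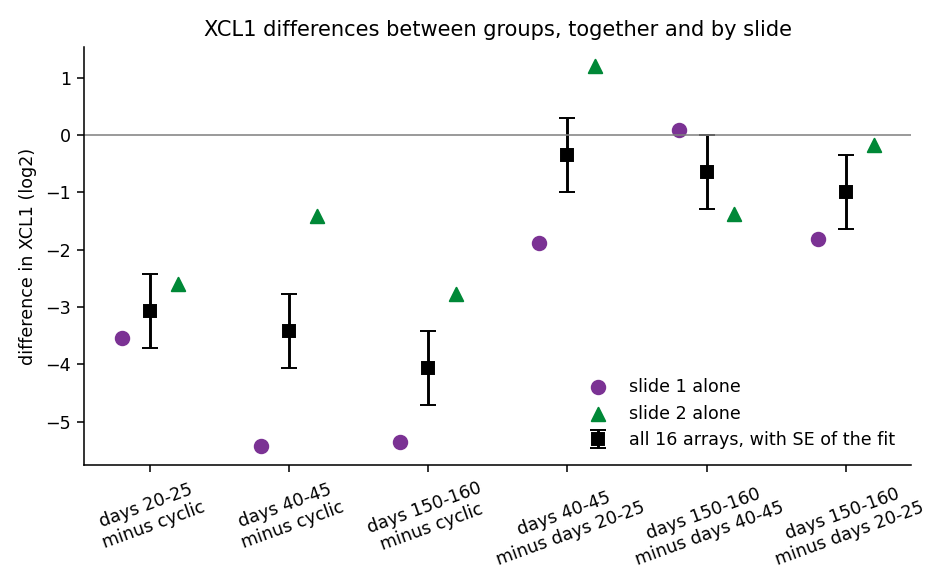
Difference in XCL1 level (log2, vertical axis) for each pair of groups from all 16 arrays (squares, bars are the SE of the fit) and from slide 1 (circles) or slide 2 (triangles) alone. The 3 differences from cyclic cows are below 0 on both slides, while that between days 40-45 and 20-25 is -1.89 on slide 1 and 1.20 on slide 2.

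Genes whose level was most like that of XCL1 were ranked by Pearson r over the 16 arrays, with 1 probe for each of 5706 named and tested genes. Over all tested probes, r with XCL1 had a median of -0.04, with the lowest 5% of values under -0.631 and the highest 5% over 0.588. These correlations are descriptions: the 16 points share slides, groups and a common scaling.

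Among the 10 highest were MTHFD1L (0.887), PABPC1 (0.858), CD68 (0.857), CATHL4 (0.856), CATHL3 (0.843), DEFB4A (0.834), CD36 (0.831), IFI30 (0.830, over 15 arrays) and ZNF350 (0.828). MTHFD1L is a mitochondrial enzyme of folate metabolism and PABPC1 binds the poly(A) tail of messenger RNA. CD68 is a lysosomal protein of macrophages, IFI30 a lysosomal reductase of antigen processing and CD36 a scavenger receptor for fatty acids and lipoproteins. CATHL3 and CATHL4 are cathelicidins and DEFB4A a beta-defensin, all antimicrobial peptides. None of these was a marker on the cytotoxic lymphocyte or T cell list. Each list had only 10 tested genes among the 5706 ranked, so nothing is read from this absence.

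CATHL4, CATHL3 and DEFB4A were not well above background on any pregnant array. Their values in pregnant cows are at the detection limit. DEFB4A was well above background on 3 of 4 cyclic arrays, and its mean was at least 2.46-fold lower on days 20-25, 2.76-fold on days 40-45 and 2.10-fold on days 150-160. It was tested only through the cyclic group, where it is high, so lower values in pregnancy were favoured and nothing is read from them.

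MTHFD1L was well above background on all 16 arrays. Its level was 1.44, 2.22, 0.32 and 0.77 in cyclic cows and 0.63, 0.55, 0.05 and -0.57 on days 20-25. On days 40-45 it was -0.17, 0.13, 0.02 and 0.70, and on days 150-160 it was 0.06, -0.47, 0.12 and 0.35. Cyclic and pregnant cows overlapped for MTHFD1L, unlike for XCL1, but its slide gaps had the same signs as those of XCL1: -1.28 in cyclic cows, then -0.85, 0.38 and 0.43 in the pregnant groups by stage. Such gaps are part of the variation that r measures, and MTHFD1L was picked by r, so the signs are no separate likeness.

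ZNF350, a zinc-finger protein gene, spanned a narrower range, with means of -4.06 ± 0.37 in cyclic cows, then -4.48 ± 0.12, -4.42 ± 0.20 and -4.49 ± 0.12 in the pregnant groups by stage. Over the 12 pregnant arrays its r with XCL1 was 0.712, the highest of the 10. PABPC1 had means of 4.39 ± 0.30, 4.08 ± 0.23, 3.82 ± 0.08 and 3.81 ± 0.19 in the same order of groups.

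The ranking rested in large part on the cyclic cows. Without cyclic replicates 1 and 2, the arrays farthest from the median XCL1 level, r of the 10 genes was 0.606 to 0.815. Over the 12 pregnant arrays it was 0.258 to 0.712 for the 6 genes well above background on all of them, and is not read for the other 4. For all 10 genes, Spearman's rho over all 16 arrays was 0.553 to 0.803. When genes were ranked again without cyclic replicate 2, 1 of the 10 stayed among the 10 highest, and with rho or over the 12 pregnant arrays 0 did. By slide, r of the 10 genes was 0.807 to 0.984 over the 8 arrays of slide 1 and 0.562 to 0.902 over those of slide 2.

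The 5 lowest were PRLR (-0.908), ZBTB16 (-0.907), PLA2G16 (-0.874), FXYD3 (-0.865) and HLF (-0.863). PRLR encodes the prolactin receptor, ZBTB16 and HLF transcription factors, PLA2G16 a phospholipase and FXYD3 a regulator of the sodium pump. All 5 were well above background on every array. Their r was -0.793 to -0.706 without the same 2 cyclic arrays, -0.776 to -0.370 over the 12 pregnant arrays, -0.991 to -0.873 on slide 1 and -0.864 to -0.705 on slide 2.

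PRLR had levels of -2.06, -2.30, 1.03 and 0.20 in cyclic cows. It had 0.60, 0.16, 1.18 and 1.17 on days 20-25, 1.75, 1.76, 1.37 and 1.41 on days 40-45, and 2.15, 2.10, 1.59 and 1.88 on days 150-160. The 2 cyclic cows with the highest XCL1, both on slide 1, had the lowest PRLR of all 16. The slide gap of PRLR was opposite in sign to that of XCL1 in every group, at 2.79, 0.79, -0.37 and -0.39. Since PRLR was picked by its r, these signs too are no separate result.

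For ZBTB16 the 4 cyclic cows lay below all 12 pregnant ones, as was the case for 1.01% of probes. Its levels were -5.27, -6.33, -4.60 and -4.34 in cyclic cows, with means of -3.35 ± 0.40 on days 20-25, -2.40 ± 0.81 on days 40-45 and -2.23 ± 0.17 on days 150-160. HLF had the same separation, with means of -0.27 ± 0.51 in cyclic cows and 0.94 ± 0.09, 1.03 ± 0.18 and 1.69 ± 0.48 in the pregnant groups.

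**Figure D3:**
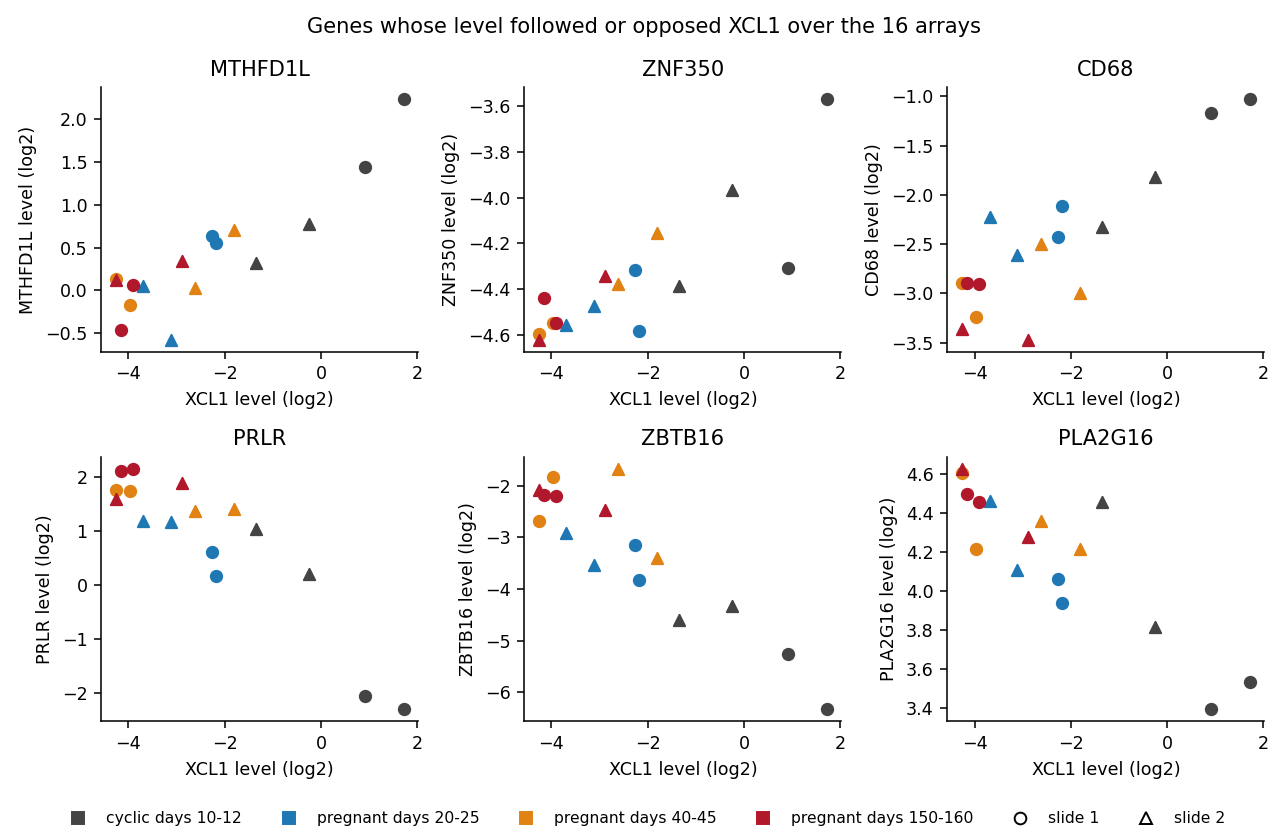
Level of 6 genes (log2, vertical axes) against that of XCL1 (log2, horizontal axes) in 16 cows, coloured by group, with circles for slide 1 and triangles for slide 2. MTHFD1L, ZNF350 and CD68 (upper panels) were high where XCL1 was high, and PRLR, ZBTB16 and PLA2G16 (lower panels) were low there. Cyclic replicates 1 and 2 lie far to the right in each panel.

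A second ranking used deviations from group means, which leaves the variation between cows of the same group. Over all tested probes this r had a median near 0 (-0.004), with the lowest 5% of values under -0.454 and the highest 5% over 0.414. The 10 highest were MTHFD1L (0.813), VRK1 (0.770), RPUSD4 (0.753), TAFA4 (0.748), ZNF350 (0.722), INHBA (0.697), PABPC1 (0.684), CLEC7A (0.675), MEST (0.673) and LRRC2 (0.673). VRK1 is a kinase active in dividing cells, RPUSD4 modifies mitochondrial RNA, TAFA4 is a secreted chemokine-like protein, INHBA is an activin subunit and CLEC7A is the beta-glucan receptor of myeloid cells.

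MTHFD1L, ZNF350 and PABPC1 were in both rankings. For CLEC7A the gap between slides was -0.81 in cyclic cows, then -0.14, 0.65 and -0.23 in the pregnant groups by stage, and for MEST, an imprinted gene, it was -1.56, -0.10, 0.80 and -0.22. On days 150-160 both thus had the opposite sign to XCL1. RPUSD4 was in this ranking although its r over the 16 arrays was 0.222, with means of 0.16 to 0.33 in all 4 groups. The 4 genes with r above 0.5 on each slide alone were MTHFD1L, PABPC1, TAFA4 and ZNF350. TAFA4 was well above background on 2 of 4 arrays of days 20-25 and on 0 of 4 at each later stage. Its r thus rests partly on values at the detection limit.

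Genes of the cells that make XCL1 were read from a list of cytotoxic lymphocyte genes. Of 38 genes listed, 15 were on the array and 10 passed the filter on dim probes. GZMA, KLRJ1, NCR1, FASLG and KIR2DL5A did not pass, and GZMA and FASLG were not well above background on any array. A probe was called at a limma adjusted p under 0.05 over all tested probes, in a moderated test with Benjamini-Hochberg adjustment. Counts at an unadjusted p under 0.05 come from the same test. The share of all probes at that unadjusted p was not determined, so nothing is read from these counts.

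On days 20-25, limma called 0 of the 10 cytotoxic genes, with 3 at an unadjusted p under 0.05, against 0.293% of all probes called (0.218% higher and 0.0754% lower). Their median difference was 0.43, beside 0.05 over all tested probes, where XCL1 differed by -3.07. On days 40-45, limma again called 0, with 0 at an unadjusted p under 0.05, against 1.23% of all probes (0.536% higher and 0.695% lower), and the median was -0.14 beside 0.01.

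On days 150-160, 1 gene was higher and 1 lower, against 7.97% of all probes called (4.65% higher and 3.32% lower), with a median of -0.10 beside 0.03. KIR3DL1, a receptor of natural killer cells, was 0.93 higher (limma adjusted p = 0.0443) and was well above background on 1 of 4 cyclic arrays. KLRB1, the receptor CD161, was lower by a difference of -1.03 (limma adjusted p = 0.0366) and was well above background on 1 of 4 arrays of days 150-160. Each thus entered the test only through groups where it is higher, so a call in its direction was favoured and no size is read from either. The KIR3DL1 call was lost in 11 of 16 fits with 1 array left out (adjusted p up to 0.114, without days 150-160 replicate 1), and that of KLRB1 in 6 (up to 0.0905, without cyclic replicate 4). With values under background raised to it, neither was called (limma adjusted p = 0.0778 and 0.27).

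Differences from cyclic cows were smaller in size for every tested gene of this list than for XCL1 at each stage. XCL1 was chosen for its drop, and of 11943 tested probes only 13, 9 and 5 dropped further, so nothing is read from this. Genes near the detection limit in cyclic cows, such as NKG7 and PRF1, could not have shown as large a measurable drop. NKG7, a granule protein, had means of -5.30 ± 0.67 in cyclic cows, then -5.17 ± 0.86, -5.37 ± 0.43 and -5.31 ± 0.60 in the pregnant groups by stage. PRF1, the pore-forming perforin, had -5.26 ± 0.31, -5.20 ± 0.49, -5.41 ± 0.24 and -5.07 ± 0.20. GNLY, which encodes the antimicrobial granulysin, had -1.85 ± 1.38, -1.21 ± 1.45, -2.25 ± 0.95 and -1.19 ± 1.91.

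GZMB, the protease granzyme B, had the lowest value relative to cyclic cows on days 20-25, with a difference of -1.34 (SE 0.85, limma adjusted p = 0.48). KLRK1, the activating receptor NKG2D, differed by 0.92, -0.13 and -0.48 in the 3 stages. KLRD1, the receptor CD94, differed by 0.77, -0.47 and -1.85, and on days 150-160 none of its 4 signals cleared the background, so its mean was at least 1.67-fold lower (limma adjusted p = 0.0716). KLRD1 also entered the test only through the other groups, where it is higher, so a lower value there was favoured. CD96 and NCR3, both lymphocyte receptors, differed from cyclic cows by at most 0.29 in size at every stage. GNLY and GZMB have 2 tested probes each, which had the same sign of difference at every stage.

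Within the cyclic group, XCL1 and the cytotoxic genes did not share an order. Cyclic replicate 1 had the second-highest XCL1 level, 0.91, and the lowest level of 9 of the 10 cytotoxic genes, a count made after the values were seen. Cyclic replicate 2 had the highest XCL1, 1.72, and the highest level of 6 of them. Low values in cyclic replicate 1 were not particular to cytotoxic genes. It was also the lowest of the 16 arrays in mean level of the T cell (-5.70) and chemokine receptor (-5.48) lists. Its 75th percentile signal was the highest, at 4288, and the part of scaling in this was not tested. The mean level over the 10 cytotoxic genes was -5.39, -4.27, -4.40 and -4.19 in cyclic replicates 1 to 4. Over the 16 arrays r of that mean with XCL1 was 0.02, and over deviations from group means it was -0.16. The summed signal of the 10 genes, relative to the 75th percentile, was 0.526 to 1.24 in cyclic cows, then 0.503 to 2.45, 0.479 to 0.843 and 0.414 to 2.43 in the pregnant groups by stage, so the groups overlapped.

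Of 17 T cell genes on the array, 10 were tested. At the 3 stages limma called 0, 0 and 0 of them, against 0.293%, 1.23% and 7.97% of all probes. At an unadjusted p under 0.05 there were 0, 0 and 1, and the medians of the 10 genes were 0.17, -0.17 and 0.29. CD8A, the co-receptor of cytotoxic T cells, had mean levels of -2.48 ± 1.05, -2.76 ± 0.20, -2.82 ± 0.49 and -2.48 ± 1.10 in cyclic cows and the 3 pregnant groups. CD3E, part of the T cell receptor complex, differed from cyclic cows by 0.12, -0.38 and 0.32. CD4, CD28, ICOS, SH2D1A and CD40LG were not well above background on any array. Summed T cell signal was 0.584 to 1.44 in cyclic cows, then 0.952 to 1.3, 0.87 to 1.07 and 0.894 to 1.88 in the pregnant groups by stage, and r of the mean level with XCL1 was -0.17.

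The receptor side was covered by 4 of 14 genes listed for XCR1-bearing dendritic cells. At the 3 stages limma called 0, 1 and 1 of them higher, against 0.218%, 0.536% and 4.65% of all probes. THBD, or thrombomodulin, which endothelial cells also carry, rose by 1.53 on days 40-45 (limma adjusted p = 0.0179) and by 2.12 on days 150-160 (limma adjusted p = 0.000699). The former call was lost in 3 fits with 1 array left out (adjusted p up to 0.0621, without days 40-45 replicate 2). CADM1, ID2 and TLR3 were not called at any stage by limma, and their differences lay between -0.49 and 0.60. The other 10 genes of the list, among them CLEC9A, BATF3 and XCR1 itself, were not measured.

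Cytokines and receptors of lymphocyte activation were tested for 9 of 17 genes on the array. At the 3 stages limma called 0, 0 and 0, against 0.293%, 1.23% and 7.97% of all probes. At an unadjusted p under 0.05 there were 0, 1 and 1, both times IL18, an inducer of interferon gamma. IL18 differed by -0.35, -0.73 and -0.72, and its r with XCL1 was 0.692. IFNG, interferon gamma itself, was well above background on 5 of 16 arrays and CSF2 on 4, and neither was tested.

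The other chemokine ligands were tested for 18 genes. Of these, limma called 0 lower at each stage, against 0.0754%, 0.695% and 3.32% of all probes. It called 0, 1 and 2 higher, against 0.218%, 0.536% and 4.65%. At an unadjusted p under 0.05 there were 4, 9 and 5. The medians of the 18 genes were -0.45, -0.63 and -0.31. GRO1, a neutrophil-attracting ligand, had a larger negative difference than XCL1 on days 20-25, at -3.84 (limma adjusted p = 0.114), and -3.20 and -1.78 at the later stages. CXCL5, of the same class, differed by -2.52, -2.70 and -1.10, and CXCL10, induced by interferon, by -1.14, -2.35 and -1.83, all short of the threshold.

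CCL11, or eotaxin, ran opposite to XCL1. In cyclic cows its signal never cleared the background, so it passed the filter only through pregnant groups, where it is high, and it was at least 45.4-fold higher on days 40-45 (limma adjusted p = 0.000667) and at least 608-fold higher on days 150-160 (limma adjusted p = 7.61e-06). CXCL12, which retains leukocytes and progenitors, rose by 1.17 on days 150-160 (limma adjusted p = 0.0264, lost in 4 fits with 1 array left out, up to 0.0765 without cyclic replicate 4). Its r with XCL1 was -0.841. Of 7 tested chemokine receptors, limma called 0 at each stage, against 0.293%, 1.23% and 7.97% of all probes. At an unadjusted p under 0.05 there were 1, 1 and 2. CXCR4, the receptor of CXCL12, differed by -0.58, -1.20 and -1.02 (limma adjusted p = 0.417, 0.0808 and 0.0636).

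Genes of some other leukocytes were read in the same way. Of 12 granulocyte genes, CATHL1, CATHL3 and CATHL4 were called lower by limma at every stage, against 0.0754%, 0.695% and 3.32% of all probes. All 3 passed the filter on dim probes only through the cyclic group, where they are high, so a call in this direction was favoured and nothing is read from it. The medians of the list were -0.88, -1.05 and -0.58. CATHL4 was at least 2.53-fold, 2.84-fold and 2.16-fold lower, since no pregnant array was well above background. With values under background raised to it, 0 of these 3 calls remained on days 20-25, and that of CATHL4 alone at each later stage. CATHL3, CATHL4 and CD68 are also among the 10 genes most like XCL1, so their calls are not independent of that choice. With 1 array left out, the CATHL3 call on days 20-25 was lost in 6 of 16 fits (adjusted p up to 0.104, without days 20-25 replicate 2), and the CATHL1 calls on days 20-25 and 150-160 in 6 and 5 (up to 0.0755 without days 20-25 replicate 1 and 0.0717 without cyclic replicate 4). Cathelicidins are a multigene family, and cross-binding among their probes was not tested. Summed granulocyte signal was 3.65 to 10.2 in cyclic cows, then 3.29 to 4.8, 2.62 to 3.89 and 3.49 to 5.81 in the pregnant groups by stage. The mean level of the list had r of 0.753 with XCL1 over the 16 arrays and 0.292 over deviations from group means. It includes CATHL3 and CATHL4, so this r partly repeats the ranking that put them among the 10. Taken singly, the 12 genes had a median r of 0.427. A high r of the mean level was not particular to granulocytes, since the luteal list had r of 0.691 and 0.361 and the B and plasma cell list 0.64 and 0.103. The luteal genes taken singly had a median r of -0.118, so most of that list did not follow XCL1. The part of these cells in the XCL1 values was not tested.

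Of 6 B and plasma cell genes, 2 were called lower on days 40-45 and the same 2 on days 150-160, against 0.695% and 3.32% of all probes. JCHAIN, the joining chain of secreted antibodies, differed by -1.71 (limma adjusted p = 0.0399) and -1.31 (limma adjusted p = 0.0422). These calls were lost in 11 and 12 of the fits with 1 array left out, with adjusted p up to 0.103 without days 40-45 replicate 2 and 0.0998 without cyclic replicate 2. IGG1C, an immunoglobulin constant region gene, differed by -2.80 (limma adjusted p = 0.0223) and -2.50 (limma adjusted p = 0.0138), and the former call was lost in 5 fits (up to 0.0754, without days 40-45 replicate 2). Summed signal of the 6 genes was 0.677 to 1.66 in cyclic cows and 0.399 to 0.812 in pregnant ones, and their part in the XCL1 values was not tested. The median r of the 6 genes with XCL1 was 0.534.

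Of 13 macrophage genes, 1 was called lower on days 40-45, and 2 lower and 1 higher on days 150-160, against 0.695%, 3.32% and 4.65% of all probes. CD68 was lower on days 40-45 (-1.32, limma adjusted p = 0.0223) and on days 150-160 (-1.57, limma adjusted p = 0.00277), where MRC1, the mannose receptor, was lower too (-1.03, limma adjusted p = 0.0217). ITGAM, an integrin of myeloid cells, was the gene called higher there. It was well above background on all 4 arrays of days 150-160 and on 1 of 4 in each other group, so it entered the test only through the group where it is high, and no size is read from it. The CD68 call on days 40-45 was lost in 4 fits with 1 array left out (up to 0.0796, without days 40-45 replicate 1) and that of MRC1 in 4 (up to 0.0572, without cyclic replicate 2). The median r of this list with XCL1 was 0.324, and summed signals of the groups overlapped, at 7.89 to 21.2 in cyclic cows and 5.51 to 15.4 in pregnant ones. The part of macrophages in the XCL1 values was not tested.

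Of 15 endothelial genes, limma called 0 on days 20-25 and days 40-45, against 0.293% and 1.23% of all probes. At an unadjusted p under 0.05 there were 8 and 3. On days 150-160 limma called 3 higher, against 4.65% of all probes: FLT1 and TEK, receptors of vessel growth, and ENG, a co-receptor. TEK lost its call in 4 fits with 1 array left out (adjusted p up to 0.0953, without cyclic replicate 4). The 2 probes of KDR, the main receptor of vascular growth factor, differed in sign at all 3 stages and neither is read. Of 12 luteal genes, limma called 1 lower on days 40-45 and on days 150-160, against 0.695% and 3.32% of all probes. This was OXT, the oxytocin gene, lower on days 40-45 (-4.05, limma adjusted p = 0.000534) and on days 150-160 (-7.97, limma adjusted p = 3.44e-07). STAR, CYP11A1, HSD3B1 and LHCGR were not called at any stage. Of 2 mast cell genes, limma called 0 at each stage, against 0.293%, 1.23% and 7.97% of all probes. KIT had an unadjusted p under 0.05 at all 3.

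**Figure D4:**
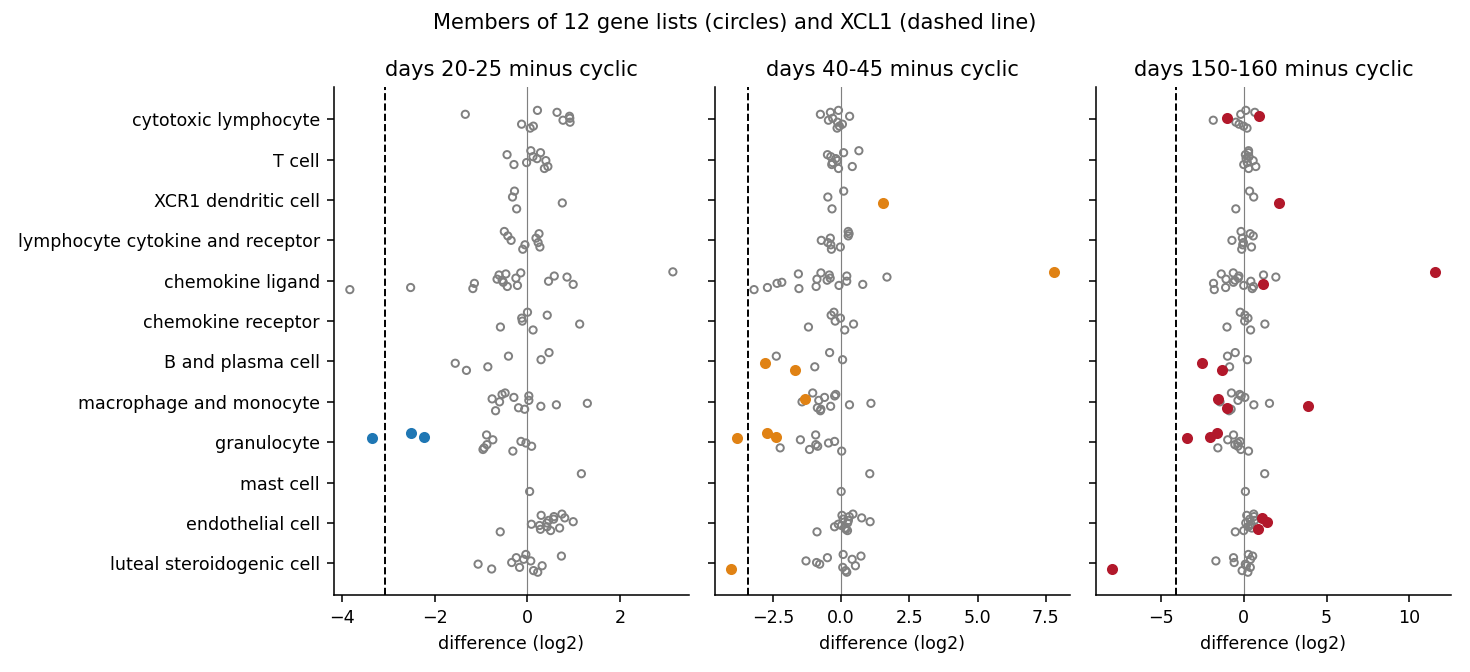
Difference from cyclic cows (log2, horizontal axes) of each tested member of 12 gene lists (rows) at 3 stages of pregnancy, filled where the limma adjusted p was under 0.05 and open otherwise. The dashed line is XCL1 at -3.07, -3.42 and -4.07. No cytotoxic lymphocyte or T cell gene lies at or beyond the line in any panel, and of 11943 tested probes only 13, 9 and 5 do. Measured values at or beyond it include GRO1 (-3.84) on days 20-25 and OXT on days 40-45 (-4.05) and 150-160 (-7.97), and those of CATHL4 on days 20-25 and 40-45, which rest on signals at background in pregnancy and bound only a smaller change.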

How the data were processed

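Total RNA of 16 corpora lutea was labelled with Cy3, per the labels' protocols, and scans were read with Agilent Feature Extraction 9.5, per the submitters' processing notes. As deposited, the processed signal is a linear intensity from which, per the file headers, background was subtracted, with a surrogate where it did not exceed its error. The deposited value table is on a log2 scale. Each column matches the log2 processed signal of its array less a constant close to the 75th percentile (largest departure 0.004612, column medians -3.18 to -2.98), and it served as an alternative.

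Control spots (536) and 36 spots with outlier flags were left out. Values are log2 processed signal minus the 75th percentile of the array. A probe was tested when well above background on at least 3 of 4 arrays of a group (11943 probes). limma 3.58.1 in R 4.3.3 fitted group means to all 16 arrays (lmFit, eBayes; 12 residual and 2.77 prior degrees of freedom), two-sided, adjusted by Benjamini-Hochberg over all tested probes and called under 0.05. The fit was tested on simulated data. A gene not well above background on a whole group has only a bound: the bright group's mean against the higher of the dim probe's signal and the lowest signal well above background.

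Probes were named through RefSeq genes of ARS-UCD2.0: 2496 by accession, 2041 by gene ID, 1295 by symbol, 284 by synonym, 868 by a human gene in the description and 96 by the file's own name, while 8128 stayed unnamed. A gene was read from its probe with the highest mean signal.

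Named genes were XCL1, the 10 highest and 5 lowest by r with XCL1, the 10 highest by r of deviations, up to 4 members of each list and comparison (those called, or else those with the smallest p), all tested cytotoxic lymphocyte genes, and STAR, CYP11A1, HSD3B1 and LHCGR. CD8A, CXCL10, KDR and genes that failed the filter were named after their values were seen. XCL1 and the 12 lists (264 genes, 118 tested) were chosen with earlier results of these data known. A gene that the rule names is not reported here.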

Additional observations from a re-analysis of the deposited data

Results flagged for a closer look

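In 7 of 104 pairs of gene and group (26 genes, 4 groups) the highest or lowest cow stood apart from the other 3 by Dixon's limit, which chance passes in about 1 of 20 groups. For XCL1 no group was among them.

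CATHL4 was at -9.322 in days 20-25 replicate 1, with the others between -8.537 and -8.444, all not well above background. HLF was at 2.398 in days 150-160 replicate 1, with the others between 1.368 and 1.538. FXYD3 was at -5.544 in cyclic replicate 3 (others -6.357 to -6.227) and at -5.155 in days 20-25 replicate 4 (others -5.353 to -5.326). PRF1 was at -4.774 in days 150-160 replicate 1 (others -5.166 to -5.161). KIR3DL1 was at -6.457 in cyclic replicate 2, the cow with the highest XCL1 (others -7.293 to -7.216). CD96 was at -3.073 in days 20-25 replicate 3 (others -4.031 to -3.939).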

How the results depend on the processing

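XCL1 lay below cyclic cows at all 3 stages under every alternative run, scaling, background, filter, slide and 1 array left out. The filters, values raised to background and a slide or replicate block could not change its differences, which stayed at -3.07, -3.42 and -4.07. XCL1 was chosen on these differences, so their persistence is no separate result. With 1 array left out the differences from cyclic cows were -3.61 to -2.58, -3.95 to -2.93 and -4.60 to -3.58 at the 3 stages, and between stages -0.80 to 0.02 (days 40-45 minus 20-25), -1.01 to -0.20 (days 150-160 minus 40-45) and -1.30 to -0.78 (days 150-160 minus 20-25). On slide 1 alone, XCL1 differed by -5.43 on days 40-45, -5.35 on days 150-160 and -1.89 between days 40-45 and 20-25, and on slide 2 by -1.41, -2.78 and, with its sign turned, 1.20.

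Probes called numbered 35, 147 and 952 at the 3 stages. On slide 1 alone they were 5, 51 and 254 and on slide 2 alone 6, 12 and 21, with 8 arrays in each fit. Slide as a block gave 78 on days 20-25. Of the probes called on days 20-25, 74.3% were higher, and 88% after normexp correction. On days 40-45 normexp correction gave 94 and no filter 90. With 1 array left out the counts were 4 to 85, 63 to 226 and 583 to 1104. List genes called numbered 3, 9 and 17 of 118 tested, against 0.293%, 1.23% and 7.97% of all probes. Those of days 20-25 were all cathelicidins, which passed the filter on dim probes only through the cyclic group. On days 20-25 normexp correction, values raised to background and slide 2 alone each gave 0. Slide 1 alone gave 4 and 8 at the later stages and slide 2 alone 1 and 2. With 1 array left out they were 1 to 4, 5 to 13 and 10 to 20, and 16 of these 29 calls held in every such fit. With slide as a block 29 held, and with values raised to background 20. The cytotoxic lymphocyte list had 0 calls at the first 2 stages under all 27 alternatives and 0 to 3 on days 150-160. The cause of these changes was not tested.

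Of the 10 genes most like XCL1, 6 stayed among the 10 highest after normexp correction, 4 on slide 1, 1 on slide 2, 0 by Spearman's rho, 3 by deviations from group means, 1 to 10 with 1 array left out, and 0 over the 12 pregnant arrays, an alternative chosen after seeing the data.

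Same-numbered cows of different groups were not treated as paired. Correlations of their deviations were 0.000622 to 0.204. Same-numbered arrays also share a slide, so these values cannot settle whether the cows were paired. With a replicate block, XCL1 differed by -3.07, -3.42 and -4.07, which such a block cannot change in this balanced design. Probes called were 39, 199 and 1086, and 28 of the 29 list calls held. The lost call was KIR3DL1 (limma adjusted p = 0.0594). XCL1 rests on 1 probe that may also read XCL2, and on 4 cows per group.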
